A study of Homo sapiens with 45 samples.

Results

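The MYC network was followed here through the mRNA of its 10 best-known members: the oncogene paralogs MYCN, MYC and MYCL, their obligate partner MAX, the MAX-binding repressors MXD1, MXI1, MXD3 and MXD4, and the large MAX-binding proteins MNT and MGA. The members were chosen by symbol, and all 10 of them were among the 29159 genes counted. RNA-seq covered 45 libraries from 3 human neuroblastoma cell lines of the adrenergic type, with 5 replicates for each line and stage. Cells received palbociclib (PB), an inhibitor of the cyclin-dependent kinases CDK4 and CDK6, at 1 μM for 24 h or for a longer time, which was 7 d in SK-N-BE(2)C and 5 d in IMR-32 and SH-SY5Y. Controls were harvested alongside the 24 h groups, and the longer groups therefore also spent more time in culture.

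SK-N-BE(2)C carries amplified MYCN and a loss on chromosome arm 1p. IMR-32 carries amplified MYCN and MEIS1 and also a 1p loss. SH-SY5Y has no MYCN amplification and carries an ALK mutation with gains on 1q and 17q. Because SH-SY5Y is the only line here without amplified MYCN, amplification and cell line cannot be told apart. Each replicate came from a separate experiment at another passage number. Library totals ran from 13459219 to 25441812 counts, with a median of 18494528. Where 3 values stand together with no line named, the leading value belongs to SK-N-BE(2)C, the middle value to IMR-32 and the last to SH-SY5Y. Levels are counts per 1000000 counted reads (CPM). Of 8 adrenergic marker genes, 8, 8 and 7 averaged at least 1 CPM in the controls, and so did 5, 5 and 6 of 7 markers of the mesenchymal type. Summed over a list, the adrenergic markers ranged over 2077 to 2390, 2024 to 3076 and 3909 to 5163 CPM in the controls, and the mesenchymal ones over 261 to 286, 225 to 302 and 515 to 572 CPM. In SK-N-BE(2)C controls replicates 3 to 5 lay closer to each other than to replicates 1 and 2, with a chi-square per degree of freedom of 2.43 to 3.18 against 11.2 to 19.2 for the other pairs. At 24 h it was 1.69 to 2.42 against 7.05 to 23.6, while at 7 d the ranges overlapped, at 5.6 to 29.5 and 19.3 to 77.8. Replicate 5 of IMR-32 stood farther from its group than the other libraries did, at root mean square log2 distances of 0.593, 0.570 and 0.424 in controls, at 24 h and at 5 d.

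MYC proteins bind DNA as dimers with MAX, most often at the E-box CACGTG, and there activate genes of ribosome production, metabolism and growth. MXD proteins and MNT compete for MAX and recruit the SIN3 corepressors to the same sequence, while MGA joins MAX in a variant Polycomb complex. In neuroblastoma, amplified MYCN marks high-risk tumors, whereas tumors and lines without it often use MYC. MXD1, MXI1 and MXD4 are associated with cells that leave the cycle and differentiate, and MXD3 with dividing cells.

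The 4 MXD genes responded to PB in the same direction in all 3 lines at 24 h: MXD4, MXD1 and MXI1 rose and MXD3 fell. Among the MYC paralogs, MYCN was called higher at 24 h in IMR-32 (0.58), with 0.31 under the fold limit in SK-N-BE(2)C and no call for the difference between these lines (0.26, adjusted p = 0.541). It was called lower at 7 d in SK-N-BE(2)C, where MYC went from below 0.5 CPM to between 1.07 and 4.48 CPM. A gene was called changed at an adjusted p below 0.05 in edgeR's quasi-likelihood test with an absolute log2 fold change above 0.5. At 24 h 4 of 10 members were called in SK-N-BE(2)C, against 21.5% of all genes tested. For IMR-32 the count was 5 of the 8 members that passed the filter on low counts, against 18.3% of genes, and MYC and MGA were too low there to be tested. SH-SY5Y gave 5 of 10, against 21.5%. After the longer treatment 5 of 10 members were called at 7 d (46.8% of all genes) in SK-N-BE(2)C, 5 of 8 for IMR-32 (32% of all genes) and 7 of 10 for SH-SY5Y (35.9% of all genes), so in SK-N-BE(2)C the members' share lay near that of all genes. Between 24 h and the longer treatment the counts were 2 of 10 (31.9% of all genes), 3 of 8 (19.6%) and 2 of 10 (16.7%). In SK-N-BE(2)C both counts at 7 d, the 5 and the 2, include MYC, which passed the filter there through the 7 d group alone.

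**Figure D1:**
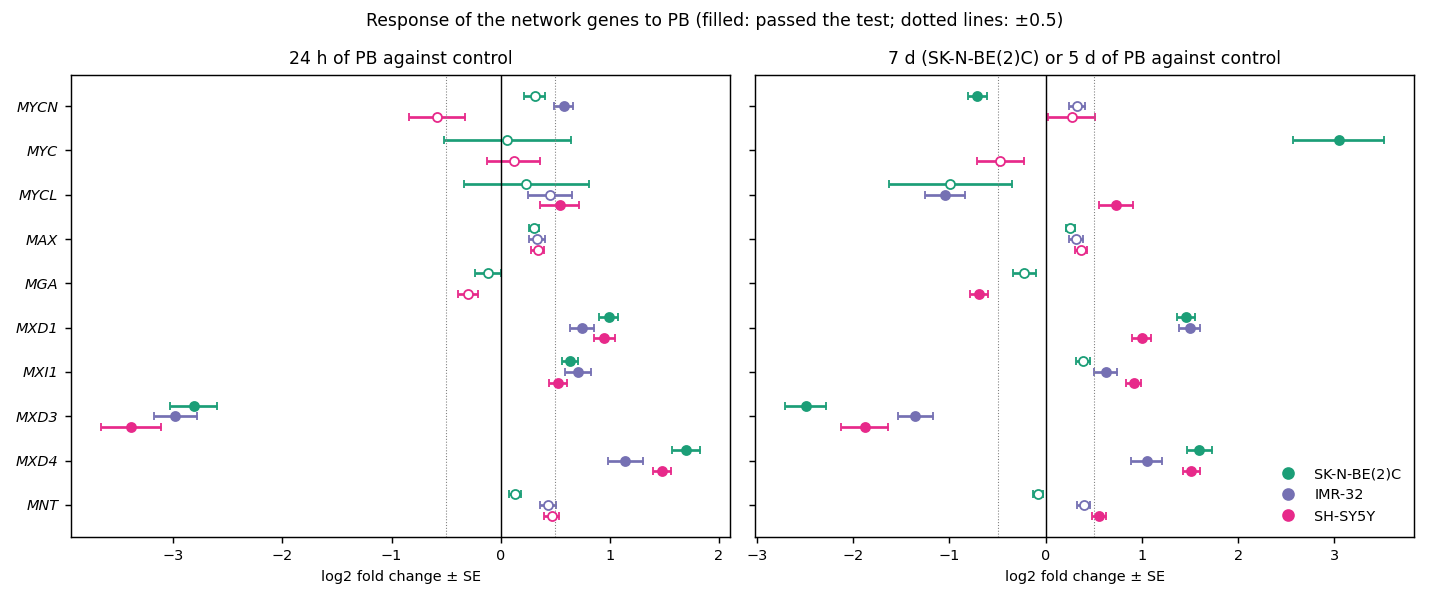
Log2 fold change with its standard error for each member in each line, at 24 h and after 5 or 7 d of PB against control, from edgeR's quasi-likelihood fit of 5 replicates a group; filled points passed the call and open points did not. The repressors MXD4, MXD1 and MXI1 sit above 0 and MXD3 far below it at 24 h in the 3 lines, while the MYC paralogs scatter.

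Before treatment, the MYC paralog in use separated the lines. MYCN, on chromosome 2 from 16080672 to 16087129 of hg19, dominated both amplified lines, and MYC, on chromosome 8 from 128747680 to 128755197, was the main paralog of SH-SY5Y. To compare genes, CPM values were divided by the length of a gene's exons in kb. On this scale MYCN stood at 1362 CPM per kb in SK-N-BE(2)C controls and 594 in IMR-32 controls, but at 2.30 in SH-SY5Y controls. MYC stood at 0.0475, 0.0506 and 13.7 CPM per kb in the same order. MYCN made up at least 99.7% of the summed MYC paralogs in each library group of the amplified lines. In SH-SY5Y controls MYC accounted for 82.2% of that sum, MYCN for 13.7% and MYCL for 4.06%.

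A fit of all 45 libraries tested the differences between controls. SH-SY5Y had less MYCN than SK-N-BE(2)C by a log2 difference of -9.41 ± 0.22 (SE, 680-fold, adjusted p = 3.78e-32) and less than IMR-32 by -8.19 ± 0.21 (293-fold). Its MYC exceeded that of SK-N-BE(2)C by 8.03 ± 0.40 (261-fold, adjusted p = 8.38e-21) and that of IMR-32 by 7.85 ± 0.39 (231-fold). MYC passed the filter of this fit through SH-SY5Y, where it is high, so its values describe the size of the gap. Apart from MYC, MYCN was the 1 member for which SH-SY5Y differed in the same direction from both other lines, and 23.8% of all genes did so. Among the amplified lines, IMR-32 had less MYCN than SK-N-BE(2)C, with a log2 difference of -1.22 ± 0.15 (2.32-fold, adjusted p = 2.42e-09), and 62.1% of all genes differed between these controls. MYCL, the paralog first found amplified in lung cancer, was highest in IMR-32, with a log2 difference of 3.08 ± 0.35 over SK-N-BE(2)C, and SH-SY5Y lay between them.

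The partner and the repressors differed far less among the lines. MAX was higher in SK-N-BE(2)C than in SH-SY5Y, with a log2 difference of -0.76 ± 0.06 for SH-SY5Y minus SK-N-BE(2)C. MXD3 was higher in IMR-32 than in SK-N-BE(2)C by 0.72 ± 0.21 (adjusted p = 0.00246). No call was made between any pair of control groups for MXD1, MXD4, MXI1 or MNT, whose log2 differences lay between -0.30 and 0.48. In SK-N-BE(2)C the order per kb was MYCN, MAX at 12.2, MXD4 at 9.57, MXI1 at 7.54, MGA at 5.81, MNT at 4.73, MXD3 at 4.17, MXD1 at 1.71, MYCL at 0.156 and MYC. The neighbours MXD4 and MXI1, MGA and MNT, MNT and MXD3, and MYCL and MYC overlapped in their range over libraries. IMR-32 followed MYCN with MXD4 at 13.5, MAX at 8.84, MXI1 at 7.23, MXD3 at 6.96, MNT at 5.38, MXD1 at 1.77 and MYCL at 1.39 CPM per kb, and MXD4 with MAX, MXI1 with MXD3 and MXD1 with MYCL overlapped. In SH-SY5Y the order was MYC, MXD4 at 12.6, MXI1 at 9.10, MAX at 8.32, MGA at 7.16, MXD3 at 6.25, MNT at 5.68, MYCN, MXD1 at 1.64 and MYCL at 0.677. There the overlapping neighbours were MYC and MXD4, MXI1 and MAX, MGA and MXD3, MXD3 and MNT, and MYCN and MXD1.

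**Figure D2:**
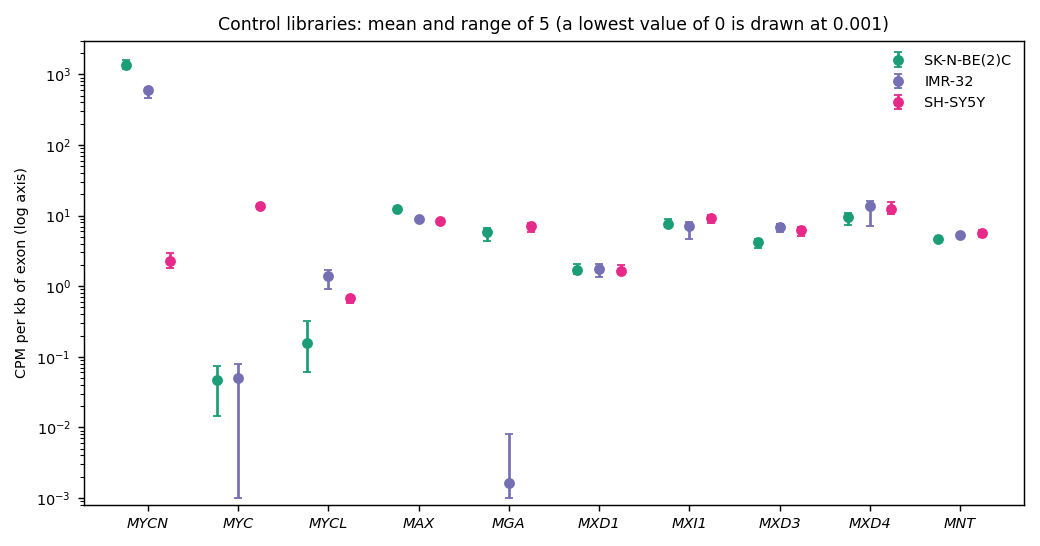
Level of each member in the control libraries of each line, in CPM per kb of exon on a log axis. Points are means and bars the range over the 5 libraries. MYCN averages 1362 and 594 in the amplified lines and 2.30 in SH-SY5Y, MYC runs the other way, and MGA is near 0 in IMR-32 alone.

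MYCN is given here in each library of each line. The SK-N-BE(2)C controls had 4428, 3356, 3325, 3952 and 3697 CPM of MYCN, the 24 h libraries 5099.7, 4427, 4506, 4673 and 5079, and the 7 d libraries 2339.6, 1861, 2520.2, 2633 and 2455. For IMR-32, MYCN measured 1755, 1596, 1762, 1776 and 1296 CPM before treatment, 2366, 2395, 2441, 2144 and 2468 at 24 h and 2218, 1941, 2109.7, 1919 and 2128 at 5 d. Control libraries of SH-SY5Y gave 4.98, 6.57, 6.05, 8.16 and 5.97 CPM of MYCN, against 4.03, 5.59, 4.57, 4.14 and 3.04 after 24 h and 13.3, 8.15, 6.61, 8.79 and 3.44 after 5 d. In SK-N-BE(2)C every library at 7 d lay below every control and every 24 h library. In IMR-32 the 24 h and 5 d libraries all lay above the controls. The SH-SY5Y groups overlapped at a level below 14 CPM.

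The fits put numbers on these courses. At 7 d MYCN fell in SK-N-BE(2)C, with a log2 fold change of -0.71 ± 0.10 against control (1.64-fold lower, adjusted p = 5.69e-06) and -1.02 ± 0.10 against 24 h (2.03-fold lower, adjusted p = 3.11e-07). Its 24 h value there was 0.31 ± 0.10 (adjusted p = 0.0145), under the fold limit. In IMR-32 MYCN rose at 24 h by 0.58 ± 0.09 (1.49-fold, adjusted p = 0.000114), and without the libraries numbered 5 this was 0.496, just under the limit. The 5 d value in IMR-32 was 0.32 ± 0.09 (adjusted p = 0.00563). In SH-SY5Y the value at 24 h was -0.58 ± 0.26 (adjusted p = 0.0691), which was not called. DESeq2, the tool of the study, did call it, at -0.60 (adjusted p = 0.0445). In edgeR it passed the call with the replicate number as a block, at -0.60 (adjusted p = 0.0421). Without replicate 2 of the 24 h group it was -0.72 (adjusted p = 0.0438), and without the libraries numbered 1 it was -0.64 (adjusted p = 0.0449). From 24 h to 5 d MYCN rose in SH-SY5Y by 0.86 ± 0.26 (adjusted p = 0.0125), but without the libraries numbered 1 the value was 0.59 (adjusted p = 0.0711).

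The difference in response between lines was tested in the joint fit. MYCN was the 1 member whose 24 h response in SH-SY5Y differed from that of both amplified lines, by -0.87 ± 0.24 from SK-N-BE(2)C (adjusted p = 0.0364) and -1.13 ± 0.24 from IMR-32 (adjusted p = 0.00331). Of all genes, 0.393% passed this double test. The first of these differences did not pass when the libraries numbered 2, 3, 4 or 5 were left out (adjusted p = 0.0902, 0.172, 0.253 and 0.0506, log2 differences of -0.95, -0.89, -0.77 and -0.75), and the second did not pass without number 4 (-1.07, adjusted p = 0.0521). The 24 h responses of the amplified lines differed by 0.26 ± 0.21 for IMR-32 minus SK-N-BE(2)C (adjusted p = 0.541). At the longer time the MYCN response of SK-N-BE(2)C lay below that of IMR-32, with a log2 difference of 1.01 ± 0.21 for IMR-32 minus SK-N-BE(2)C (adjusted p = 0.000302). SH-SY5Y stood above SK-N-BE(2)C by 1.02 ± 0.23, and its difference from IMR-32 was 0.0098 ± 0.23 (adjusted p = 1.0). These contrasts also compare 5 d with 7 d.

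MYCN overlaps MYCNOS, a gene on the opposite strand that runs from 16058473 to 16082371. No source used here gives the strand setting behind the counts, and reads of the pair in their overlap cannot be told apart. In controls MYCNOS stood at 29.0 ± 2.57, 8.11 ± 1.5 and 0.118 ± 0.0254 CPM (SD, n = 5). It rose at 24 h in both amplified lines, with log2 fold changes of 0.74 ± 0.11 in SK-N-BE(2)C against 0.60 ± 0.17 for IMR-32, and its 7 d value in SK-N-BE(2)C was 0.57 ± 0.11, also called, where MYCN fell. DDX1 and NBAS, protein-coding neighbours of MYCN, had 8381 ± 878 and 3059 ± 115 CPM in IMR-32 controls but 371 ± 9.69 and 78.1 ± 3.82 CPM in SK-N-BE(2)C. MYCN itself was lower in IMR-32 than in SK-N-BE(2)C. Of the 12 genes listed around MYCN, 3 of 9 tested rose at 24 h in SK-N-BE(2)C (10.9% of all genes), 1 of 10 rose (7.87%) and 2 fell (10.5%) in IMR-32, and 2 of 8 fell in SH-SY5Y (11%). At the longer time 4, 2 and 1 of them were higher than control (24.5%, 16.6% and 18.6% of all genes) and 1, 3 and 3 lower (22.3%, 15.5% and 17.3%). MXD3, MAX, MYCL and MYC also overlap genes on the opposite strand (PRELID1, FNTB, MYCL-AS1 and CASC11), and so do MXI1, MNT and MGA.

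The 250 bases before the MYCN start are shown because MYCN has, in this window, matches both to the E2F motifs and to the CHR (cell cycle genes homology region), the element of genes shut off in resting cells. The window is chr2:16080422-16080671 on the plus strand of GRCh37 (hg19), from RefSeq's start site, and capitals mark the matches.
MYCN promoter: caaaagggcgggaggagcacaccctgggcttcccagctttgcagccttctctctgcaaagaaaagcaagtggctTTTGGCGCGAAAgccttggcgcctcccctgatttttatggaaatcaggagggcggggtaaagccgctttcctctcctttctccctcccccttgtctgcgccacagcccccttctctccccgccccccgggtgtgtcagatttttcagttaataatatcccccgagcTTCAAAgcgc
Motifs searched on both strands were the E-box CACGTG, the E2F letters TTTGGCGC or TTTCGCGC, and the CHR letters TTTGAA. MYCN holds 1 E2F match on each strand, which begin 176 and 172 bases before the start and overlap, and a CHR match 10 bases before it on the minus strand. Of 35116 RefSeq windows of this length, 0.9682% hold an E2F match, 13.32% a CHR match and 6.345% an E-box.

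**Figure D3:**
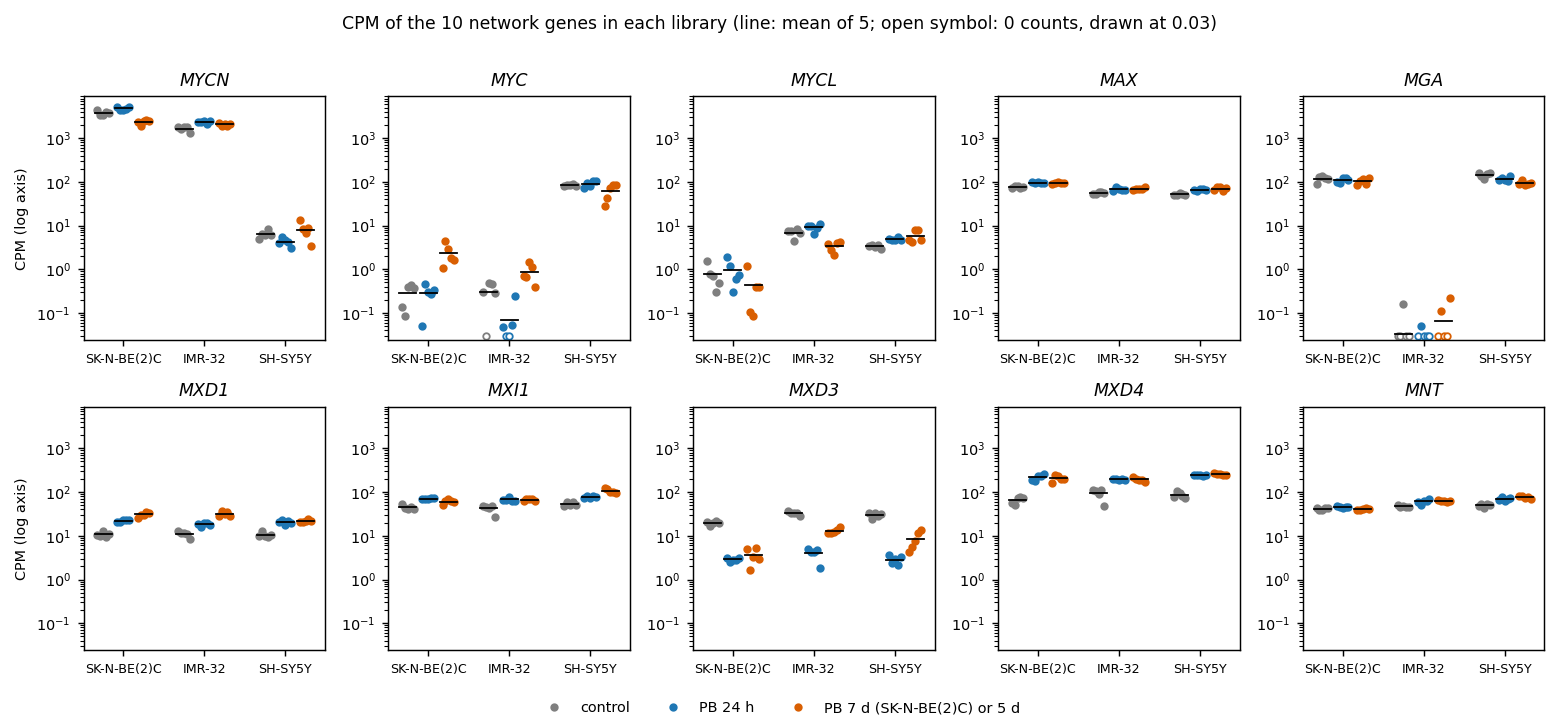
CPM of each member in every library on a log axis, by line and by stage (control, 24 h, 5 or 7 d), with 1 point per library. MXD3 drops at 24 h in every library, MXD4 and MXD1 lie above all controls at both times, and MYC in SK-N-BE(2)C climbs from below 0.5 CPM to between 1.07 and 4.48 CPM at 7 d.

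MYC, the founding paralog, stayed below 0.5 CPM in SK-N-BE(2)C until 7 d. Values of MYC in SK-N-BE(2)C were 0.140, 0.0878, 0.399, 0.446 and 0.378 CPM in controls, 0.0499, 0.472, 0.302, 0.279 and 0.340 at 24 h and 1.07, 4.48, 2.90, 1.81 and 1.65 at 7 d. These values are 1 to 12 reads a library before 7 d and 17 to 83 reads at 7 d. MYC passed the filter on low counts here through the 7 d group alone, so the fitted values are a description. They were log2 fold changes of 3.05 ± 0.47 (8.26-fold, adjusted p = 2.43e-05) against control and 2.98 ± 0.46 (7.91-fold, adjusted p = 4.33e-05) against 24 h. It stayed far below MYCN: MYCN remained between 1861 and 2633 CPM in the same 7 d libraries.

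MYC stood at 0.309, 0, 0.490, 0.460 and 0.287 CPM in the 5 controls of IMR-32, 0.0489, 0, 0, 0.0543 and 0.251 at 24 h and 0.698, 0.654, 1.43, 1.15 and 0.392 at 5 d. The groups held 32, 6 and 77 reads in all, too few for the test. The 5 d libraries all exceeded the 24 h libraries but overlapped the controls. The SH-SY5Y controls had 80.5, 86.2, 84.2, 87.8 and 79.6 CPM of MYC, the 24 h libraries 72.7, 92.6, 81.1, 105 and 105, and the 5 d libraries 28.2, 43.4, 73.1, 86.4 and 84.4. Replicates 1, 2 and 3 at 5 d lay below every control, the first of these the lowest, and replicates 4 and 5 lay within the control range. The SH-SY5Y value was 0.12 ± 0.24 at 24 h (adjusted p = 0.715) and -0.47 ± 0.25 at 5 d (adjusted p = 0.107). It was -0.61 (adjusted p = 0.0473) without replicate 4 of the 5 d group. From 24 h to 5 d it was -0.59 ± 0.25 (adjusted p = 0.067), and with the replicate block -0.65 (adjusted p = 0.0384). Without replicate 4 or 5 of the 5 d group that value was -0.73 (adjusted p = 0.0324) and -0.70 (adjusted p = 0.0458).

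MYCL moved in opposite directions in IMR-32 and SH-SY5Y at 5 d. For SK-N-BE(2)C, MYCL measured 1.59, 0.790, 0.699, 0.297 and 0.487 CPM before treatment, 1.90, 1.18, 0.302, 0.613 and 0.728 at 24 h and 1.20, 0.108, 0.0841, 0.397 and 0.386 at 7 d. Control libraries of IMR-32 gave 7.47, 7.41, 4.46, 8.36 and 6.84 CPM of MYCL, against 9.63, 9.72, 6.59, 8.96 and 11.1 after 24 h and 3.72, 2.83, 2.12, 4.0 and 4.2 after 5 d. Values of MYCL in SH-SY5Y were 3.46, 3.52, 3.28, 3.63 and 2.91 CPM in controls, 4.98, 4.66, 4.81, 5.46 and 4.71 at 24 h and 4.70, 4.13, 7.92, 7.84 and 4.65 at 5 d. All IMR-32 libraries at 5 d lay below all its controls, and all SH-SY5Y libraries at both times lay above its controls. SK-N-BE(2)C groups overlapped, at or below 1.90 CPM. MYCL fell in IMR-32 at 5 d, with log2 fold changes of -1.04 ± 0.21 against control (2.06-fold lower, adjusted p = 0.000735) and -1.5 ± 0.21 against 24 h (2.83-fold lower, adjusted p = 7.74e-05). Its 24 h value in IMR-32 was 0.46 ± 0.20 (adjusted p = 0.0932), and 0.56 (adjusted p = 0.0496) without replicate 3 of the 24 h group. In SH-SY5Y it rose by 0.54 ± 0.18 at 24 h (1.45-fold, adjusted p = 0.0182) and 0.73 ± 0.18 at 5 d (1.66-fold, adjusted p = 0.0014). The 24 h call rested on single libraries: it was 0.494 without replicate 4 of the 24 h group, 0.494 without control replicate 5 and 0.490 without both libraries numbered 5. In SK-N-BE(2)C the 7 d values were -0.99 ± 0.64 against control (adjusted p = 0.176) and -1.23 ± 0.63 against 24 h (adjusted p = 0.103). Without replicate 1 of the 7 d group they were -1.80 (adjusted p = 0.0174) and -2.03 (adjusted p = 0.0095), and without the libraries numbered 1 they were -1.37 (adjusted p = 0.0368) and -1.63 (adjusted p = 0.0154).

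The longer response of MYCL in SH-SY5Y differed from that of each amplified line, by 1.77 ± 0.55 from SK-N-BE(2)C (adjusted p = 0.0121) and 1.84 ± 0.43 from IMR-32 (adjusted p = 0.00118). Among all genes 6.52% passed in this way. Without the libraries numbered 2 or 3 the MYCL difference from SK-N-BE(2)C was 1.64 (adjusted p = 0.0618) and 1.35 (adjusted p = 0.0766). For MYC the joint fit gave log2 differences of -3.52 ± 0.55 from SK-N-BE(2)C and -1.85 ± 0.60 from IMR-32 (adjusted p = 4.27e-06 and 0.0171). MYC passed the filter of the joint fit through SH-SY5Y, and the amplified lines held few of its reads, so these values support nothing about the responses. The difference from IMR-32 was also lost without the libraries numbered 2 (-1.52, adjusted p = 0.0523) or 3 (-1.85, adjusted p = 0.0713).

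MXD3 fell further at 24 h than any other member tested, in each line. This repressor is the MXD paralog expressed in S phase. MXD3 stood at 20.9, 16.7, 20, 21.9 and 19.5 CPM in the 5 controls of SK-N-BE(2)C, 3.15, 2.55, 2.83, 2.79 and 3.06 at 24 h and 4.99, 1.67, 3.24, 5.27 and 2.97 at 7 d. The IMR-32 controls had 36.1, 33.4, 33.9, 33.8 and 27.8 CPM of MXD3, the 24 h libraries 4.99, 4.31, 4.21, 4.78 and 1.82, and the 5 d libraries 11.6, 11.7, 11.9, 13.7 and 16.0. For SH-SY5Y, MXD3 measured 32.3, 24.2, 32.3, 27.7 and 31.6 CPM before treatment, 3.62, 2.39, 2.97, 2.09 and 3.25 at 24 h and 4.2, 5.52, 7.44, 11.6 and 13.4 at 5 d. No treated library reached the lowest control of its line. In IMR-32 and SH-SY5Y every 5 d library lay above every 24 h library, while in SK-N-BE(2)C the late and early groups overlapped. At 24 h the log2 fold changes of MXD3 were -2.81 ± 0.22 (7.03-fold lower, adjusted p = 4.45e-08), -2.98 ± 0.20 (7.89-fold, adjusted p = 1.05e-08) and -3.39 ± 0.27 (10.5-fold, adjusted p = 7.59e-08). It stayed lower than control at -2.49 ± 0.21, -1.35 ± 0.18 and -1.88 ± 0.24 after the longer treatment. From 24 h to 5 d MXD3 rose again by 1.63 ± 0.19 in IMR-32 (3.09-fold, adjusted p = 1.74e-05) and 1.51 ± 0.28 in SH-SY5Y (2.84-fold, adjusted p = 0.000663). For 7 d against 24 h in SK-N-BE(2)C the value was 0.32 ± 0.23 (adjusted p = 0.236), and 0.505 (adjusted p = 0.0185) without replicate 2 of the 7 d group. The longer response of IMR-32 exceeded that of SK-N-BE(2)C by 1.11 ± 0.32 (adjusted p = 0.00587), beside 23.9% of all genes that differed there.

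Proliferation genes moved beside MXD3. All 10 markers of dividing cells fell at 24 h in each line, with median log2 fold changes of -2.94, -3.06 and -3.16, and MKI67, the classical proliferation antigen, had -4.35, -3.30 and -4.93. Of all genes, 10.6%, 10.5% and 11% fell at 24 h. After the longer treatment 10, 9 and 10 of them were lower than control, with medians of -2.58, -1.40 and -2.21, beside 22.3%, 15.5% and 17.3% of all genes. Their summed CPM ranged over 3837 to 4033 in the controls of SK-N-BE(2)C, 626 to 872 at 24 h and 586 to 1280 at 7 d. In IMR-32 the ranges were 2893 to 4259, 447 to 629 and 1176 to 1897, and in SH-SY5Y 3020 to 3654, 371 to 517 and 380 to 1155. The part of the dividing cells in the MXD3 result was not tested, and in such bulk samples fewer cells that express a gene and less RNA per cell cannot be told apart. The 5 genes whose pattern over the 45 libraries was most like that of MXD3, with line means removed, were CDK1 (Pearson r = 0.973), HJURP (0.97), PRC1 (0.97), CCNF (0.969) and SPC25 (0.969), which are genes of mitosis and the G2 phase. These points share treatment and library, and the correlation is a description.

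Markers of cell state also moved with PB. The summed adrenergic markers ranged over 2933 to 3147, 3176 to 3982 and 5715 to 7537 CPM at 24 h, above the controls of each line, and over 2571 to 3089, 2891 to 3527 and 4075 to 5854 CPM after the longer treatment. At 24 h 1, 4 and 2 of the 8 adrenergic genes were called higher and none lower, beside 10.9%, 7.87% and 10.5% of all genes. At the longer time 0, 1 and 1 of them were called higher and 1, 1 and 1 lower, where 24.5%, 16.6% and 18.6% of all genes were higher. The summed mesenchymal markers of SH-SY5Y went down to between 335 and 418 CPM at 24 h and between 240 and 274 CPM at 5 d. Those of IMR-32 ranged over 233 to 282 CPM at 24 h and 142 to 187 CPM at 5 d, and those of SK-N-BE(2)C over 261 to 305 and 232 to 419 CPM. Of all genes, 10.6%, 10.5% and 11% were called lower at 24 h. Of the mesenchymal genes tested, 0 of 6, 1 of 5 and 3 of 7 were called lower at 24 h and 1, 0 and 0 higher. At the longer time 3, 3 and 5 were called lower and 1, 0 and 1 higher, beside 22.3%, 15.5% and 17.3% lower among all genes. The MXD, MYC paralog, MAX, MNT and MGA values of the same libraries stand beside these shifts, and the part of cell state in them was not tested.

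MXD4, a repressor linked with differentiation, rose more at 24 h than any other member tested, in each line. Control libraries of SK-N-BE(2)C gave 57.2, 49.9, 72.5, 75 and 74.2 CPM of MXD4, against 188, 180.3, 236, 234 and 252 after 24 h and 159, 239, 228, 203 and 195 after 7 d. Values of MXD4 in IMR-32 were 111, 103, 90.9, 110.4 and 48.7 CPM in controls, 203, 204, 191, 202 and 191 at 24 h and 221, 199, 185, 191 and 172 at 5 d. MXD4 stood at 75, 107, 95.6, 82.0 and 71.7 CPM in the 5 controls of SH-SY5Y, 247, 240.1, 244, 233 and 245 at 24 h and 279, 264, 262, 241 and 246 at 5 d. Treated libraries lay above all controls of their line without overlap. At 24 h MXD4 rose by 1.70 ± 0.13 (3.24-fold, adjusted p = 6.24e-08), 1.14 ± 0.16 (2.21-fold, adjusted p = 5.62e-05) and 1.48 ± 0.09 (2.79-fold, adjusted p = 3.39e-10). After the longer treatment the gains were 1.60 ± 0.13, 1.05 ± 0.16 and 1.51 ± 0.09, and no further change between the times was called. The 24 h response of IMR-32 minus that of SK-N-BE(2)C was -0.56 ± 0.19 (adjusted p = 0.0691, with 4.49% of all genes called), and with the replicate block -0.53 (adjusted p = 0.0308). At the longer time IMR-32 gained less than SK-N-BE(2)C, with a difference of -0.58 ± 0.19 (adjusted p = 0.0176), and less than SH-SY5Y, which exceeded it by 0.52 ± 0.19 (adjusted p = 0.0335). The former was lost without the libraries numbered 2, 3 or 4 (-0.40, -0.57 and -0.55) and the latter without those numbered 1, 3 or 4 (0.45, 0.55 and 0.45).

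The promoters of MXD4 and MXD3 are shown because these paralogs moved in opposite directions in every line. Both lie on the minus strand of GRCh37, MXD4 at chr4:2263837-2264086 and MXD3 at chr5:176739754-176740003, and are printed 5′ to 3′ as the gene reads, with motif matches in capitals.
MXD4 promoter: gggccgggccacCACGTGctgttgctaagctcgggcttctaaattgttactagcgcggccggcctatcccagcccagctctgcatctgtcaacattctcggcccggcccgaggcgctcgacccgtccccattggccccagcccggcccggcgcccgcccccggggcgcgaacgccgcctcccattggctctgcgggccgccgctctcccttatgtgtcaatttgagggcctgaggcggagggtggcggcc
MXD3 promoter: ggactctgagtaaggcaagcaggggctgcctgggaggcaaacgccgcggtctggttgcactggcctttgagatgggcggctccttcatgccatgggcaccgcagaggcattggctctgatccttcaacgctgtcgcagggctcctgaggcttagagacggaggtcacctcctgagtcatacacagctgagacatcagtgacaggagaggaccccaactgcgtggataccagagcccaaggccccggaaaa
MXD4 has an E-box 238 bases before its start, and MXD3 has no match to the 3 motifs in this window. Among the 14 windows of the 9 members looked up, MNT held the other E-box, 193 bases before its start, and 1 of the MGA windows held E2F and CHR matches. MXD1, MXI1, MAX and MYCL held no match in their windows, which says only that these letters are not there.

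MXD1, the founding member of the repressor family, rose in each line at both times. The SK-N-BE(2)C controls had 10.4, 9.96, 13.0, 9.58 and 11.2 CPM of MXD1, the 24 h libraries 20.5, 21.1, 23.0, 22.4 and 23.2, and the 7 d libraries 26.1, 29.8, 30.0, 34.7 and 33.2. For IMR-32, MXD1 measured 13.1, 11.8, 11.6, 11.2 and 8.50 CPM before treatment, 18.8, 15.6, 19.8, 19.9 and 17.2 at 24 h and 28.7, 36.9, 31.3, 34.7 and 28.3 at 5 d. Control libraries of SH-SY5Y gave 9.79, 12.7, 9.70, 9.35 and 10.6 CPM of MXD1, against 20.4, 22.8, 17.3, 21.6 and 19.3 after 24 h and 21.0, 21.1, 21.2, 24.2 and 21.5 after 5 d. No treated library overlapped the controls. The 24 h log2 gains were 0.99 ± 0.09 (1.99-fold, adjusted p = 2.2e-07), 0.74 ± 0.11 (1.67-fold, adjusted p = 9.14e-05) and 0.95 ± 0.10 (1.93-fold, adjusted p = 2.22e-07). The longer treatment gave 1.46 ± 0.09, 1.5 ± 0.11 and 1.0 ± 0.10 against control. IMR-32 gained a further 0.75 ± 0.11 from 24 h to 5 d (adjusted p = 9.43e-05), and its 5 d libraries lay above those of 24 h. The value for 7 d against 24 h in SK-N-BE(2)C was 0.47 ± 0.09 (adjusted p = 0.000201), under the fold limit, and 0.513 without replicate 1 of the 7 d group.

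MXI1, also called MXD2, rose in all 3 lines at 24 h and was called at 5 d in IMR-32 and SH-SY5Y. Values of MXI1 in SK-N-BE(2)C were 52.4, 43.4, 41.6, 44.4 and 40.8 CPM in controls, 68.8, 70.6, 70.1, 72.5 and 71.9 at 24 h and 50.8, 61.4, 67.7, 62.0 and 59.2 at 7 d. MXI1 stood at 48.1, 46.2, 43.3, 48.3 and 27.5 CPM in the 5 controls of IMR-32, 66.6, 67.0, 76.7, 63.2 and 63.9 at 24 h and 62.4, 70.7, 68.8, 68.7 and 61.2 at 5 d. The SH-SY5Y controls had 46.8, 60.4, 50.7, 59.0 and 51.7 CPM of MXI1, the 24 h libraries 74.0, 81.3, 73.4, 82.9 and 78.4, and the 5 d libraries 123, 115, 102, 97.8 and 93.5. Every 24 h library lay above the controls of its line, and in SK-N-BE(2)C the 7 d range reached back into that of the controls. At 24 h the gains were 0.63 ± 0.07 (adjusted p = 3.64e-06), 0.71 ± 0.12 (adjusted p = 0.000296) and 0.53 ± 0.08 (adjusted p = 2.81e-05). The SH-SY5Y call lay close to the fold limit and was 0.494 without replicate 2 of the 24 h group, 0.477 without control replicate 1 and 0.492 without the libraries numbered 5. At 5 d the gain was 0.63 ± 0.12 for IMR-32 against 0.91 ± 0.08 for SH-SY5Y, and at 7 d in SK-N-BE(2)C the value was 0.39 ± 0.07, under the limit. The longer response of SH-SY5Y exceeded that of SK-N-BE(2)C by 0.55 ± 0.14 (adjusted p = 0.00175), but this was 0.33 (adjusted p = 0.0888) without the libraries numbered 1.

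**Figure D4:**
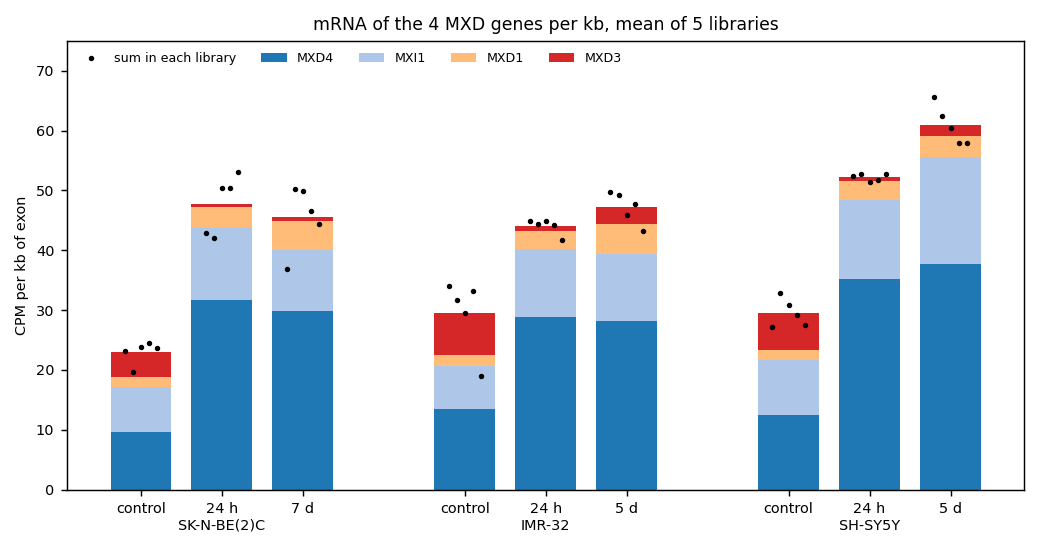
Summed level of the 4 MXD genes in CPM per kb of exon, split by gene, for each line and stage (mean of 5 replicates, with dots for the sum in each library). The sum goes from 23.0, 29.5 and 29.5 in controls to 47.8, 44 and 52.2 at 24 h for the lines from left to right, while the MXD3 share shrinks.

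Summed over the 4 MXD genes, the repressor mRNA per kb increased while its makeup turned over. The sum averaged 23.0 ± 1.90, 47.8 ± 4.96 and 45.6 ± 5.46 CPM per kb in SK-N-BE(2)C at control, 24 h and 7 d (SD, n = 5). In IMR-32 it averaged 29.5 ± 6.12, 44 ± 1.31 and 47.2 ± 2.68, and in SH-SY5Y 29.5 ± 2.37, 52.2 ± 0.63 and 60.9 ± 3.26. MXD3 went from 18.1%, 24.3% and 21.4% of the sum in controls to 1.28%, 1.91% and 1.16% at 24 h, and MXD4 from 41.4%, 45.1% and 42.3% to 66.1%, 65.6% and 67.5%. After the longer treatment the MXD1 share was 10.7%, 10.7% and 5.67%, from 7.45%, 6.10% and 5.56% in controls. The ratio of summed MYC paralogs to summed MXD genes at control, 24 h and the longer time averaged 59.4, 36.4 and 19.1 for SK-N-BE(2)C. It averaged 20.6, 19.6 and 15.9 for IMR-32, against 0.566, 0.335 and 0.24 for SH-SY5Y. The size of these ratios rests on the gene length used. With the length of the longest coding transcript, an alternative chosen after seeing the data, they were 35.6, 22.4 and 11.9 for SK-N-BE(2)C, 12.1, 12 and 9.84 for IMR-32 and 0.492, 0.307 and 0.209 for SH-SY5Y. The MXD sums were then 1.7 to 1.79 times as high, at 40.5, 52.8 and 52.7 CPM per kb in the controls. These sums describe mRNA, combine genes already called above, and were given no test.

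MAX, the shared partner, had small values of like size in the 3 lines. For SK-N-BE(2)C, MAX measured 73.3, 78.4, 79.7, 72.7 and 77.9 CPM before treatment, 98.8, 96.1, 98.4, 95.6 and 93.0 at 24 h and 88.9, 95.1, 100.1, 92.6 and 93.0 at 7 d. Control libraries of IMR-32 gave 53.4, 53.8, 57.1, 57.3 and 54.9 CPM of MAX, against 60.3, 75.9, 70.2, 64.0 and 66.8 after 24 h and 66.0, 67.6, 68.8, 67.6 and 76.1 after 5 d. Values of MAX in SH-SY5Y were 50.4, 51.1, 56.1, 52.0 and 50.8 CPM in controls, 65.3, 63.4, 69.7, 67.8 and 65.7 at 24 h and 66.6, 76.2, 74.4, 62.9 and 71.8 at 5 d. All treated libraries of each line lay above its controls. The log2 values at 24 h were 0.30 ± 0.04 (adjusted p = 3.58e-05), 0.33 ± 0.08 (adjusted p = 0.00305) and 0.34 ± 0.06 (adjusted p = 0.00015), and after the longer treatment 0.26 ± 0.04, 0.31 ± 0.08 and 0.37 ± 0.06. None of them passed the fold limit of 0.5. Per kb, the MYC paralogs together averaged 112 times the level of MAX in SK-N-BE(2)C controls, 67.4 times in IMR-32 and 2.01 times in SH-SY5Y. With the length of the longest coding transcript these ratios were 59.6, 35.9 and 1.57.

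MNT, the most widely expressed MAX-binding repressor, was called in SH-SY5Y at 5 d alone. MNT stood at 43.4, 38.7, 39.1, 42.1 and 42.3 CPM in the 5 controls of SK-N-BE(2)C, 48.8, 46.6, 43.6, 45.6 and 45.6 at 24 h and 39.2, 39.0, 40.1, 42.3 and 40.4 at 7 d. The IMR-32 controls had 50, 45.4, 47.8, 44.7 and 46.2 CPM of MNT, the 24 h libraries 60.1, 50.5, 63.7, 63.6 and 69.2, and the 5 d libraries 64.1, 63.7, 61.3, 60.1 and 61.5. For SH-SY5Y, MNT measured 46.9, 53.6, 43.7, 52.9 and 50 CPM before treatment, 64.7, 78.1, 61.2, 68.5 and 71.7 at 24 h and 79.9, 79.3, 72.2, 78.7 and 71.0 at 5 d. Treated libraries lay above the controls in IMR-32 and SH-SY5Y, and at 7 d SK-N-BE(2)C overlapped its controls. MNT rose at 5 d in SH-SY5Y by 0.55 ± 0.07 (1.47-fold, adjusted p = 2.43e-06). The 24 h value in SH-SY5Y was 0.47 ± 0.07, those of IMR-32 were 0.43 ± 0.07 at 24 h and 0.40 ± 0.07 at 5 d, and those of SK-N-BE(2)C 0.13 ± 0.05 and -0.08. The longer response of SH-SY5Y exceeded that of SK-N-BE(2)C by 0.66 ± 0.09 (adjusted p = 3.5e-07), and its excess over IMR-32 was 0.22 ± 0.09 (adjusted p = 0.0582).

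MGA, a very large protein with 2 DNA-binding domains, was close to absent from IMR-32. Control libraries of SK-N-BE(2)C gave 87.1, 128, 134, 119.8 and 114 CPM of MGA, against 98.4, 96.5, 123, 121 and 111 after 24 h and 83.9, 105, 114, 89.1 and 123 after 7 d. Values of MGA in SH-SY5Y were 159, 136, 117, 151 and 156 CPM in controls, 108, 125, 112, 105 and 139 at 24 h and 89.0, 108, 83.8, 90.2 and 94.6 at 5 d. All 15 IMR-32 libraries together held 10 reads of MGA. The IMR-32 controls had 3 reads, against 11191 in SK-N-BE(2)C controls and 14705 in SH-SY5Y controls. After scaling by library size, SK-N-BE(2)C had 3969 times the IMR-32 level (95% exact interval 1358 to 19248, counting error only) and SH-SY5Y 4927 times (1686 to 23893). At 5 d MGA fell in SH-SY5Y, with a log2 fold change of -0.70 ± 0.09 (1.62-fold lower, adjusted p = 3.32e-06), and its 5 d libraries all lay below its controls. The SH-SY5Y value at 24 h was -0.30 ± 0.09 (adjusted p = 0.0118), and in SK-N-BE(2)C the values were -0.12 at 24 h and -0.22 ± 0.12 at 7 d.

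Genes around MGA were also low in IMR-32. MGA lies on chromosome 15 from 41913332 to 42065279 of hg19. Of 18 tested protein-coding neighbours lying wholly within 600 kb of it, a window chosen after the MGA values were seen, 15 were lower in IMR-32 controls than in both other lines, beside 16% of all genes. CHP1 averaged 157, 27.0 and 120.3 CPM in the controls of the 3 lines. LTK, a receptor kinase related to ALK, averaged 43.0, 0.270 and 12.6 CPM, and EHD4 33.5, 3.31 and 50.3 CPM. MAPKBP1, which begins just beyond the end of MGA, averaged 38.0, 23.9 and 42.9 CPM. DNA copy number was not measured in these libraries.

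**Figure D5:**
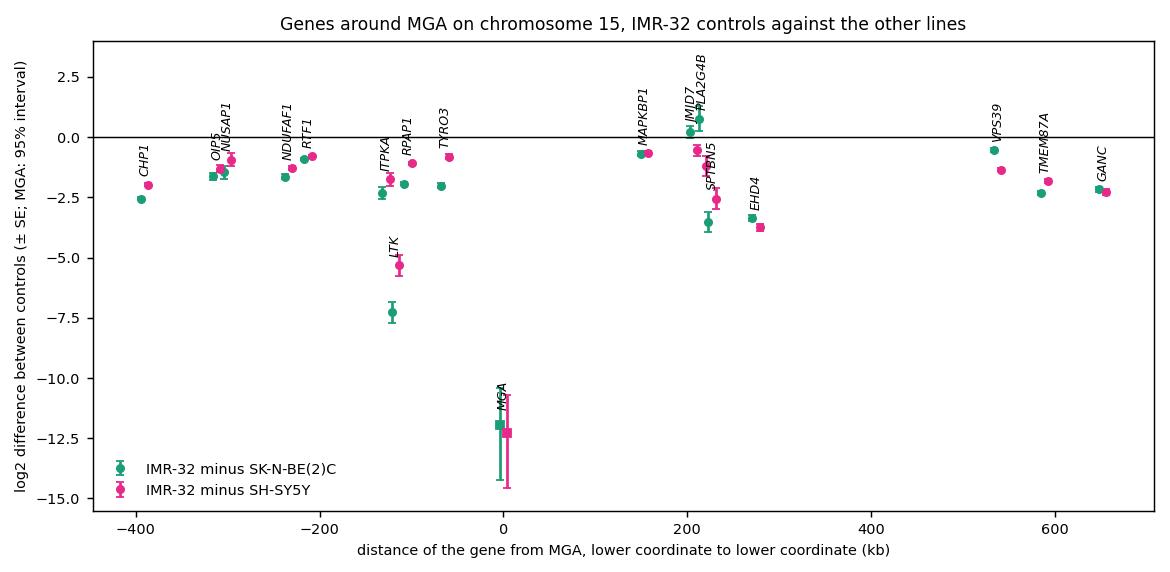
Log2 difference between IMR-32 controls and those of SK-N-BE(2)C or SH-SY5Y for MGA and 17 protein-coding genes around it, against distance from MGA in kb; circles with standard errors come from edgeR's fit, and the MGA squares are read ratios with 95% counting intervals. PLA2G4D, with no reads in IMR-32 controls, is not drawn, and most circles and both squares lie below 0.

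Other genes tied to MYC control moved as follows, on lists chosen from textbook knowledge with earlier results of these data known. Among 27 regulators and partners of MYC proteins, 6 of 25, 6 of 26 and 6 of 26 tested fell at 24 h, and 13, 5 and 8 fell after the longer treatment, when 1 rose in IMR-32. Of all genes tested, 10.6%, 10.5% and 11% fell and 10.9%, 7.87% and 10.5% rose at 24 h, and 22.3%, 15.5% and 17.3% fell and 24.5%, 16.6% and 18.6% rose after the longer treatment. AURKA, the mitotic kinase that stabilizes N-MYC protein, fell at 24 h with log2 fold changes of -1.99 ± 0.21, -2.24 ± 0.15 and -2.88 ± 0.15. PIM1, a kinase that phosphorylates MYC, had -1.89, -1.5 and -2.78, CIP2A, an inhibitor of the phosphatase PP2A, -1.56, -2.43 and -1.51, and SKP2, a ubiquitin ligase subunit, -0.53, -0.55 and -0.74, all called. AURKA and CIP2A also mark dividing cells, whose markers moved at the same time. The corepressor genes SIN3A and SIN3B had 24 h values of -0.48, -0.38 and -0.06, and of 0.28, 0.38 and 0.43, none of them called.

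Genes that MYC proteins activate were counted in the same way, against shares of all genes that also grew with time. At 24 h 10.6%, 10.5% and 11% of all genes fell and 10.9%, 7.87% and 10.5% rose. After the longer treatment 22.3%, 15.5% and 17.3% fell and 24.5%, 16.6% and 18.6% rose. From 24 h to the longer time 14.4%, 8.86% and 6.23% of all genes fell and 17.5%, 10.8% and 10.5% rose. Of 30 nucleolar and ribosome production genes, 1 fell at 24 h in each line and 1 rose in IMR-32, and after the longer treatment 21, 11 and 11 fell and 1 rose in SK-N-BE(2)C, with medians of -0.66, -0.41 and -0.37. In the direct comparison with 24 h 19, 10 and 2 of them fell. The median over all genes tested stayed between 0.00 and 0.06. FBL, the nucleolar methyltransferase, had -1.49, -0.95 and -0.92, and NCL, encoding nucleolin, -1.06, -0.59 and -0.96, all called. Of 22 genes of nucleotide, polyamine and one-carbon metabolism, 6, 10 and 14 fell at 24 h (medians -0.24, -0.38 and -0.60) and 20, 14 and 16 after the longer treatment (medians -0.77, -0.61 and -0.71). Directly against 24 h 11, 2 and 2 of these fell and 1 rose in IMR-32. PHGDH, which opens serine synthesis, had log2 fold changes of -1.08, -1.61 and -1.31 at 24 h, all called. ODC1, the rate-limiting enzyme of polyamine synthesis, had 24 h values of -0.21, -0.06 and -0.51, the last of them called, and of -1.39, -0.68 and -1.67 after the longer treatment, all called. Of 12 genes of glycolysis and transport, 2, 3 and 1 fell at 24 h and 11, 3 and 9 after the longer treatment, with LDHA at -0.81, -1.13 and -1.59. Against 24 h 7, 1 and 9 of the 12 fell and 1 rose in IMR-32. Many of these genes are also more active in dividing cells, and what part MYC proteins have in these values was not tested.

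Genes that MYC proteins repress gave small counts, several of them near the shares of all genes. Those shares were 10.9%, 7.87% and 10.5% higher and 10.6%, 10.5% and 11% lower at 24 h, and 24.5%, 16.6% and 18.6% higher and 22.3%, 15.5% and 17.3% lower after the longer treatment. Of those tested, 1 of 11 rose and 3 fell at 24 h in SK-N-BE(2)C, 3 of 8 rose in IMR-32, and 5 of 10 rose and 1 fell in SH-SY5Y. After the longer treatment 4 rose and 2 fell in SK-N-BE(2)C, 4 rose and 1 fell in IMR-32, and 2 rose and 4 fell in SH-SY5Y. NDRG1, named for its repression by N-MYC, rose then by 1.64 ± 0.38, 1.33 ± 0.20 and 0.89 ± 0.11. CDKN1A, the p21 inhibitor of cyclin-dependent kinases, fell at 24 h in SK-N-BE(2)C (-1.68 ± 0.53) and rose in SH-SY5Y (0.69 ± 0.22), with -0.42 ± 0.31 in IMR-32. Its values against control at the longer time were 0.17 ± 0.49, -0.58 ± 0.31 and -0.94 ± 0.22, the last of them called. CDKN1A averaged 9.08, 2.87 and 10.6 CPM over the 3 stages of SK-N-BE(2)C and 125.7, 204 and 68.4 CPM over those of SH-SY5Y. Against 24 h it rose by 1.86 ± 0.53 in the former and fell by 1.63 ± 0.22 in the latter, both called.

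The genes most like the other members were found in the same way, over the 45 libraries and 12555 genes tested in every line. MXD4 was closest to DYRK1B (r = 0.967) and CUL7 (0.962), and MXD1 to PREPL (0.955) and STX12 (0.955). MXI1 was closest to HAGHL (0.911), MNT to CHRNB2 (0.896), MAX to COQ6 (0.884), MYCL to PYCR1 (0.805) and MYCN to SEMA4A (0.686). Among the members themselves MAX had r = 0.869 with MXD4, 0.821 with MXI1 and -0.779 with MXD3, and MYCN had 0.0745 with MXD4. MYC and MGA were left out here because IMR-32 held too few of their reads.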

How the data were processed

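PolyA RNA of 45 samples was sequenced from directional paired-end libraries. Per the submitters' processing notes, the authors trimmed reads with Trim Galore 0.6.4 and aligned them to hg19 with STAR 2.6.1d, which also counted reads per gene. The deposited count tables hold 1 table per line, with whole unnormalized counts for 29159 genes. The deposited CPM tables hold the same counts per 1000000 of a library's total, recomputed here, and the deposited tables of the authors' own DESeq2 1.32.0 comparisons (log2 fold changes, p-values) were not used.

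Samples were grouped by the labels' line and stage. The tests used edgeR 4.0.16 and limma 3.58.1 under R 4.3.3: genes were filtered (filterByExpr, minimum count 10, minimum total 15, proportion 0.7), scaled by TMM factors and fitted by robust quasi-likelihood with 1 mean per group, in each line by itself (15 libraries) and in a joint fit of 45. P-values were Benjamini-Hochberg adjusted over all genes tested, and a call needed adjusted p below 0.05 and an absolute log2 fold change above 0.5, the study's limits. Scripts were tested on simulated data.

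Levels of different genes were compared as CPM per kb of merged exons (GENCODE lifted to GRCh37). Promoters came from RefSeq, with 14 windows of 9 members each found once in GRCh37; only the 250 bases before the start were searched. The other genes named are up to 4 per list with the largest mean absolute log2 fold change among those called in the same direction in all 3 lines, plus a fixed set that includes AURKA, ODC1, SIN3A, SIN3B, NDRG1, CDKN1A, MKI67, DDX1, NBAS and MYCNOS. The genes around MGA were chosen after their values were seen. Some items are not reported here. The members and lists were chosen with earlier results of these data known.

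Within each line the labels share replicate numbers. Same-numbered samples deviated together with a lowest correlation of 0.114 (IMR-32) and 0.109 (SH-SY5Y), and of 0.243 for control and 24 h of SK-N-BE(2)C. With 7 d in SK-N-BE(2)C the lowest were 0.0966 and 0.0482. The main fits carried no replicate term, so the calls and adjusted p printed are unpaired except where the block is named. Alternatives were DESeq2 1.42.0, other scalings, no filter, no fold limit, a replicate block, leaving out libraries, and replicates 3 to 5 of SK-N-BE(2)C summed.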

Additional observations from a re-analysis of the deposited data

Results flagged for a closer look

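In 7 of 86 groups of 5 libraries, 1 library lay apart from its group by Dixon's ratio, where chance gives about 1 in 20 groups. MYCL in SK-N-BE(2)C at 7 d had 1.20 CPM in replicate 1 against 0.0841 to 0.397 in the other 4. MAX had 76.1 CPM in IMR-32 replicate 5 at 5 d against 66.0 to 68.8, and 56.1 CPM in SH-SY5Y control replicate 3 against 50.4 to 52.0. MXD1 had 24.2 CPM in SH-SY5Y replicate 4 at 5 d against 21.0 to 21.5. MXI1 had 27.5 CPM in IMR-32 control replicate 5 against 43.3 to 48.3, and 76.7 CPM in IMR-32 replicate 3 at 24 h against 63.2 to 67.0. MXD3 had 1.82 CPM in IMR-32 replicate 5 at 24 h against 4.21 to 4.99.

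The response of MYCN at 24 h differed between SH-SY5Y and both amplified lines, with log2 differences of -0.87 from SK-N-BE(2)C and -1.13 from IMR-32. The first was lost in 4 of 5 fits that left out the libraries of 1 number (adjusted p up to 0.253) and without the filter on low counts (adjusted p = 0.0545), and the second in 1 of 5 (adjusted p = 0.0521). For the longer treatment that of MYCL did so, at 1.77 and 1.84, and the former was lost in 2 of 5 such fits. The values of MYC, -3.52 and -1.85, passed the same limits, but MYC had 32, 6 and 77 reads in the IMR-32 groups and was tested through its level in SH-SY5Y, so they support nothing.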

How the results depend on the processing

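Without the fold limit the members called went from 4 to 7 at 24 h and from 2 to 5 at 7 d against 24 h in SK-N-BE(2)C, from 5 to 8 at 5 d in IMR-32, and in SH-SY5Y from 5 to 8 at 24 h and from 2 to 4 at 5 d against 24 h. Differences of SH-SY5Y from both other lines went from 2 to 4 in controls and from 2 to 4 in the longer response. Each 2 includes MYC, which passed the filter of the joint fit through SH-SY5Y. Without the filter on low counts the 24 h count of such differences went from 1 to 0, with MYCN at adjusted p = 0.0545 against SK-N-BE(2)C. How many of all genes pass without the fold limit was not counted, so the counts without it are no result about the members. Leaving out libraries gave 2 to 4 members at 7 d against 24 h in SK-N-BE(2)C (4 without 7 d replicate 1), 3 to 6 at 24 h in SH-SY5Y (3 without number 5), 1 to 3 at 5 d against 24 h in SH-SY5Y (1 without number 1), 0 to 1 for the 24 h difference and 0 to 2 for the longer one. The cause of these changes was not tested. MYC is among the members counted at 7 d against 24 h in SK-N-BE(2)C and in the 2 of the longer difference.

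The replicate block turned 4 values in single lines into calls: MYCN at 24 h (-0.60) and MYC at 5 d against 24 h (-0.65) in SH-SY5Y, and MYCL in SK-N-BE(2)C at 7 d against control (adjusted p = 0.0462) and against 24 h (-1.23, adjusted p = 0.0178); the last pair rests on numbers that did not deviate together. Of the differences in response, it turned MXD4 at 24 h, IMR-32 minus SK-N-BE(2)C, into a call. DESeq2 also called MYCN at 24 h in SH-SY5Y (-0.60, adjusted p = 0.0445). No block could be used between controls of different lines, since the numbers belong to a line. Signs turned, for values never called, when libraries were left out: MYC (-0.50 to 0.32) and MYCL (-0.16 to 0.68) at 24 h in SK-N-BE(2)C, MAX (-0.069 to 0.055) and MNT (-0.091 to 0.0054) at 5 d against 24 h in IMR-32, MYCN at 5 d (-0.046 to 0.45), MAX (-0.019 to 0.10) and MXD1 (-0.00097 to 0.11) at 5 d against 24 h in SH-SY5Y. Scaling by library size alone gave 0.037 for MAX and 0.017 for MNT in IMR-32 at 5 d against 24 h. With the length of the longest coding transcript, chosen after seeing the data, MXD3 ranked 5 and MGA 7 in SK-N-BE(2)C, MXI1 5 and MXD3 4 in IMR-32, and MAX 3, MXI1 4, MXD3 5, MNT 6 and MGA 7 in SH-SY5Y. The same length took the ratio of MYC paralogs to MAX in controls from 112 to 59.6, from 67.4 to 35.9 and from 2.01 to 1.57. Summing replicates 3 to 5 of SK-N-BE(2)C changed no call there. No scaling moved the median of all genes by more than 0.0695. The values of MYC in IMR-32 and of MYC and MYCL in SK-N-BE(2)C rest on few reads.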
